A study of Mus musculus with 6 samples.

Results

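Centromere and outer kinetochore transcripts were examined in 6 lines of primary mouse embryo fibroblasts, cells taken from embryos and grown in culture. The genes were chosen by name from a list of 10 (Cenpa, Cenpe, Cenpf, Cenph, Cenpk, Ndc80, Nuf2, Spc24, Spc25 and Knl1), and a probe set was taken where the array annotation gave it exactly 1 symbol and that symbol was on the list. Of the 10 genes 8 had such a probe set, among 12393 genes named on the array. No probe set was matched to Spc24 or Knl1, which are not analysed here. Cenpf and Spc25 had 2 probe sets each, which gave 10 probe sets for the 8 genes, and all 8 genes passed the filter on low values.

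The study compared 3 chromosomally unstable lines with 3 stable lines, with 1 Affymetrix array per line. The unstable lines were 2 BubR1 H/H lines, labelled hypomorphic for BubR1 and wild type for CDC20, and 1 CDC20 AAA/AAA line, labelled hypomorphic for CDC20 and wild type for BubR1. The stable lines were 2 BubR1 +/+ lines and 1 CDC20 +/+ line, all wild type at both loci. All lines were primary cells grown for 2 passages in serum-containing medium under the same conditions. BubR1, encoded by Bub1b, is a spindle checkpoint protein, and CDC20 activates the anaphase-promoting complex. The titles number the lines 9515, 9938 and 10074, with 1 unstable and 1 stable line under each number; lines of the same number are referred to as a pair. The BubR1 lines make up pairs 9515 and 9938, and the CDC20 lines make up pair 10074. The CDC20 allele is represented by a single line, so genotype and line cannot be told apart there. Separate embryos or litters are not mentioned in the labels, so a p-value here covers only the spread between these lines, which may be partly technical.

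The kinetochore is the protein structure that assembles on each centromere and ties the chromosome to spindle microtubules. Nucleosomes that hold the histone variant CENP-A mark the centromere, the constitutive centromere-associated network (CCAN) binds them throughout the cell cycle, and the NDC80 complex at the outer face grips microtubule ends. Many genes of the outer kinetochore are transcribed mainly in G2 phase and mitosis, and in fibroblast cultures their transcripts are scarce in resting cells.

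The deposited values are log2 expression values, and array medians lay between 6.155 and 6.197. With 6 arrays, precision is limited by their number. In the order 9515, 9938 and 10074, which is kept for all values by line, Bub1b had levels of 6.14, 6.43 and 7.00 in the unstable lines, against 7.81, 8.51 and 7.61 in the stable lines. Both BubR1 H/H lines lay below every other line, as their labels have it, and the CDC20 AAA/AAA line also lay below its stable partner. Cdc20 stood at 10.74, 10.34 and 10.03 in the unstable lines and at 10.85, 11.15 and 10.83 in the stable lines. Of the fibroblast markers, 12 of 12 reached a log2 value of 4 on at least 1 array, and their summed linear level was 58985 to 62509 in unstable lines and 58077 to 66249 in stable lines. Among 6 epithelial markers Epcam and Cdh1 stayed below 4 on every array, while the 4 keratins reached it, Krt18 with 5.93 to 7.02 and Krt19 with 5.64 to 7.44. The summed level of the 6 was 205 to 391 in unstable and 226 to 317 in stable lines. Among 6 endothelial markers 4 stayed below 4 on every array (Pecam1, Cdh5, Tie1 and Emcn), and the sum was 55 to 64 in unstable and 54 to 57 in stable lines.

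The 8 measured kinetochore genes were lower in the unstable line of all 3 pairs, 8 of 8, beside 19.3% of the 8382 genes tested, and 8 of 8 were lower on group means, beside 52.1%. The differences of group means were -0.80 to -0.53 on the log2 scale, which is 1.44-fold to 1.74-fold lower, with a median of -0.68 over the 8 genes and of -0.01 over all genes tested. None of the 8 differences passed limma's test after Benjamini-Hochberg adjustment over all genes tested (adjusted p = 0.999 for each gene), where 0.0% of genes passed. Before adjustment 3 of the 8 were lower at p under 0.05 (Cenph, Cenpk and Spc25), beside 2.93% of all genes. In the fit that took the pair as a block, the adjusted p of the 8 genes was 0.262 to 0.318 and none passed, again beside 0.0%. That fit gave 8 of 8 lower at an unadjusted p under 0.05, beside 6.92% of genes. The list was drawn up with earlier results of these data known, so these counts are descriptions and not independent support. On bulk RNA, fewer dividing cells and less of these transcripts per cell cannot be told apart.

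**Figure D1:**
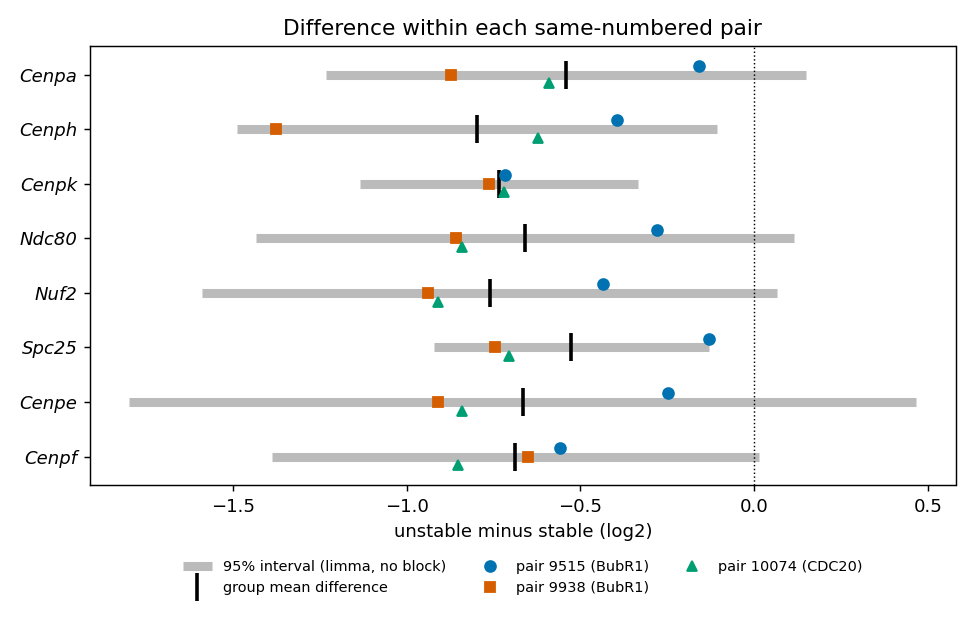
Unstable minus stable log2 difference of the 8 kinetochore genes, with 1 point per pair, a black tick for the difference of group means and a grey bar for its 95% interval from limma without a block. All points lie below 0; the circle of pair 9515 is the point nearest to 0 for each gene, and the 3 points of Cenpk lie almost on each other at -0.72 to -0.76.

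The differences were uneven across pairs. The median over the 8 genes was -0.34 in pair 9515, -0.87 in pair 9938 and -0.78 in pair 10074. For 8 of 8 genes the smallest difference was that of pair 9515, and for 7 of 8 the largest was that of pair 9938, the exception being Cenpf with its largest in pair 10074. The SD over the 8 genes was 0.20, 0.22 and 0.12 in pairs 9515, 9938 and 10074, beside 0.25, 0.36 and 0.37 over all genes tested. Over the 19 G2 and mitosis genes described below it was 0.17, 0.17 and 0.20. The median over the 8 genes was -0.41 with the unstable 10074 line left out, which is the largest move that leaving out a single line made.

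RefSeq promoters of the build GRCm38.p6, from 250 bases before to 50 after the annotated start, were available for all 8 genes, with 3 starts for Cenpk and 1 for each other gene. They were searched on both strands for the cell cycle genes homology region (CHR), an element of many G2 and mitosis genes, taken as TTTGAA or TTTAAA. The second of these reads the same on both strands. The CCAAT box was searched as CCAAT, and the E2F site as TTCCCGC or TTGGCGC or TTGCCGC or TTCGCGC. No 2 matches overlapped in these promoters. A CHR match within 60 bases before to 50 after the start was found in 5 of the 8 genes, beside 9.12% of all 32851 promoters and 6.76% of the 6838 tested genes with a promoter entry. The same 5 genes held one in the whole window, beside 27.6% of promoters.

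The 5 promoters with a CHR match are shown from base -70 to base 30, with base 1 the annotated start, because the match is a feature these genes share that the choice by name did not use. Cenpa lies at chr5:30666816-30666915 on the plus strand, Cenpe at chr3:135212493-135212592 on the plus strand, Cenpf at chr1:189688057-189688156 on the minus strand, Ndc80 at chr17:71526828-71526927 on the minus strand and Spc25 at chr2:69206184-69206283 on the minus strand. Each is written 5′ to 3′ on the gene's own strand, and capitals mark CHR and CCAAT matches that lie wholly within the stretch. A CCAAT match of Cenpf at -71 to -67 begins before its stretch and is left in lower case.
Cenpa: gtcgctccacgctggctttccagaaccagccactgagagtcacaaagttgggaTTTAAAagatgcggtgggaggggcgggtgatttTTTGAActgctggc
Cenpe: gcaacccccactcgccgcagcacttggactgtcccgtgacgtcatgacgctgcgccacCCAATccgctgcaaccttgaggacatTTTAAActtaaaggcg
Cenpf: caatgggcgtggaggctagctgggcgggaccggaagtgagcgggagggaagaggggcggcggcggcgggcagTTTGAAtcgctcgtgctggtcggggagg
Ndc80: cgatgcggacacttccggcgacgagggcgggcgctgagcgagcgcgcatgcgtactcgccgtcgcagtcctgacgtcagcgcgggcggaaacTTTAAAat
Spc25: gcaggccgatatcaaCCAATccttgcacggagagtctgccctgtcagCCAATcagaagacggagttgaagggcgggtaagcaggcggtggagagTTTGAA

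In Cenpa the matches begin at base -17 and base 17 from the start, in Cenpe at 15, in Cenpf at 3, in Ndc80 at 23 and in Spc25 at 25. Cenpf holds a further match at -154 and Ndc80 a further one on the opposite strand at 30, which begin or run outside the printed stretches. Cenph, Cenpk and Nuf2 had no CHR match in this window. A CCAAT box was found in 6 of the 8 genes (Cenpa, Cenpe, Cenpf, Cenph, Cenpk and Spc25), beside 37.4% of all promoters and 43.1% of the tested genes. An E2F match was found in 2 of the 8 (Cenph and the third start of Cenpk), beside 9.57% of promoters and 20.3% of the tested genes. These matches describe letters only and say nothing of whether a factor binds there.

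**Figure D2:**
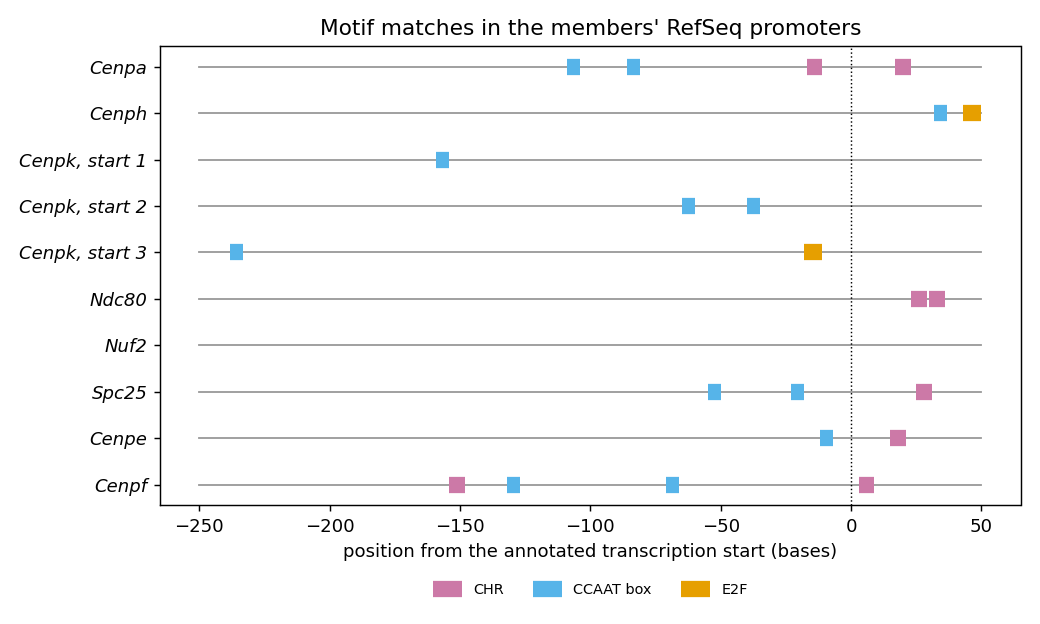
Motif matches in the RefSeq promoters of the 8 genes, with position from the annotated start in bases on the x axis and 1 line per gene or, for Cenpk, per start; coloured blocks are CHR, CCAAT and E2F matches. CHR blocks sit close to the start in Cenpa, Cenpe, Cenpf, Ndc80 and Spc25, and the lines of Cenph, Cenpk and Nuf2 carry none.

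Cenpa encodes CENP-A, the histone H3 variant that marks the centromere. Its level was 8.52, 8.32 and 7.76 in the unstable lines, against 8.68, 9.19 and 8.35 in the stable lines. The unstable 10074 line was the lowest and the stable 9938 line the highest, and the groups overlapped, since the stable 10074 line lay below the unstable 9515 line. The unstable mean was 8.20 ± 0.40 and the stable mean 8.74 ± 0.43 (SD, n = 3 each), a difference of -0.54 with a standard error of 0.28 and a limma adjusted p of 0.999. It was -0.32 without the unstable 10074 line and -0.31 without the stable 9938 line. Standard errors of single genes, here and below, come from the fit without the pair block unless the block is named. With the block they were smaller for each of the 8 kinetochore genes, from 0.08 for Cenpk to 0.20 for Cenph. None of these genes passed the adjusted threshold in either fit.

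Cenph and Cenpk encode subunits of the CCAN that sit in 1 subcomplex and help to join CENP-A chromatin to the outer kinetochore. Cenph stood at 7.41, 7.18 and 6.92 in the unstable lines, against 7.80, 8.56 and 7.54 in the stable lines. All 3 unstable lines lay below all 3 stable lines, which held for 3 of the 8 genes and for 6.41% of the genes tested. The mean of Cenph was 7.17 ± 0.24 in unstable and 7.97 ± 0.53 in stable lines (SD, n = 3 each), and its difference of -0.80 with a standard error of 0.28 was the largest of the 8. That size rested partly on pair 9938, where the difference was -1.38, against -0.40 in pair 9515 and -0.62 in pair 10074. Without the stable 9938 line the difference of Cenph was -0.50, and without the whole pair it was -0.51.

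Cenpk stood at 7.52, 7.38 and 7.10 in the unstable lines, against 8.24, 8.14 and 7.82 in the stable lines. These groups did not overlap either. The 3 pairs gave nearly the same difference, -0.72, -0.76 and -0.72, with an SD of 0.03 over the pairs, while the SD for the other 7 genes was 0.15 to 0.51. The means of Cenpk were 7.33 ± 0.22 and 8.06 ± 0.22 in unstable and stable lines (SD, n = 3 each), which differed by -0.73 with a standard error of 0.16. Leaving out any single line kept the difference of Cenpk between -0.86 and -0.62, and its limma adjusted p was 0.999, or 0.262 with the block.

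Ndc80, Nuf2 and Spc25 encode subunits of the NDC80 complex, in which the NDC80 and NUF2 proteins bind the microtubule and SPC25, with SPC24, anchors the complex to the inner kinetochore. Ndc80 stood at 6.56, 6.62 and 5.77 in the unstable lines, against 6.84, 7.48 and 6.61 in the stable lines. Nuf2 stood at 9.19, 9.33 and 8.39 in the unstable lines, against 9.63, 10.27 and 9.30 in the stable lines. Both genes were lowest in the unstable 10074 line and highest in the stable 9938 line, and in both the stable 10074 line lay just below the unstable 9938 line, so the groups overlapped. The difference of Ndc80 was -0.66 with a standard error of 0.32, and within pairs it was -0.28, -0.86 and -0.84. For Nuf2 the difference was -0.76 with a standard error of 0.34, and the pairs gave -0.44, -0.94 and -0.91. Leaving out the unstable 10074 line or the stable 9938 line gave -0.38 or -0.41 for Ndc80 and -0.47 or -0.49 for Nuf2.

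Spc25 stood at 9.70, 9.41 and 9.20 in the unstable lines, against 9.83, 10.15 and 9.90 in the stable lines. The groups did not overlap, although the difference within pair 9515 was only -0.13. The means were 9.44 ± 0.25 in unstable and 9.96 ± 0.17 in stable lines (SD, n = 3 each), and the difference of -0.53 with a standard error of 0.16 was the smallest of the 8. The second probe set of Spc25 stayed below a log2 value of 4 on every array, between 2.81 and 3.05, and showed a difference of 0.00. Averaging both probe sets therefore gave -0.26 for Spc25.

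Cenpe encodes a mitotic kinesin that carries chromosomes along microtubules, and Cenpf a large protein of the fibrous corona, the outermost layer of the kinetochore. Cenpe stood at 6.72, 6.56 and 5.36 in the unstable lines, against 6.97, 7.47 and 6.21 in the stable lines. The CDC20 lines of pair 10074 were the lowest 2 of the 6, so the stable one lay below both BubR1 H/H lines. The difference of Cenpe was -0.67 with a standard error of 0.46, the largest of the 8 in the fit without the pair block. With the block its standard error was 0.16, and the largest was that of Cenph at 0.20. The difference of Cenpe was -0.24 without the unstable 10074 line, -0.37 without the stable 9938 line and -1.003 without the stable 10074 line.

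Cenpf stood at 8.31, 8.19 and 7.41 in the unstable lines, against 8.87, 8.83 and 8.27 in the stable lines. Its highest line was the stable 9515 line, as for Cenpk, while the other 6 genes had theirs in the stable 9938 line. The difference was -0.69 with a standard error of 0.29, and the pairs gave -0.56, -0.65 and -0.85. Without the unstable 10074 line it was -0.41. The second probe set of Cenpf reached a log2 value of 4 on 1 array only, and its pairs gave -0.27, -1.03 and -0.03.

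**Figure D3:**
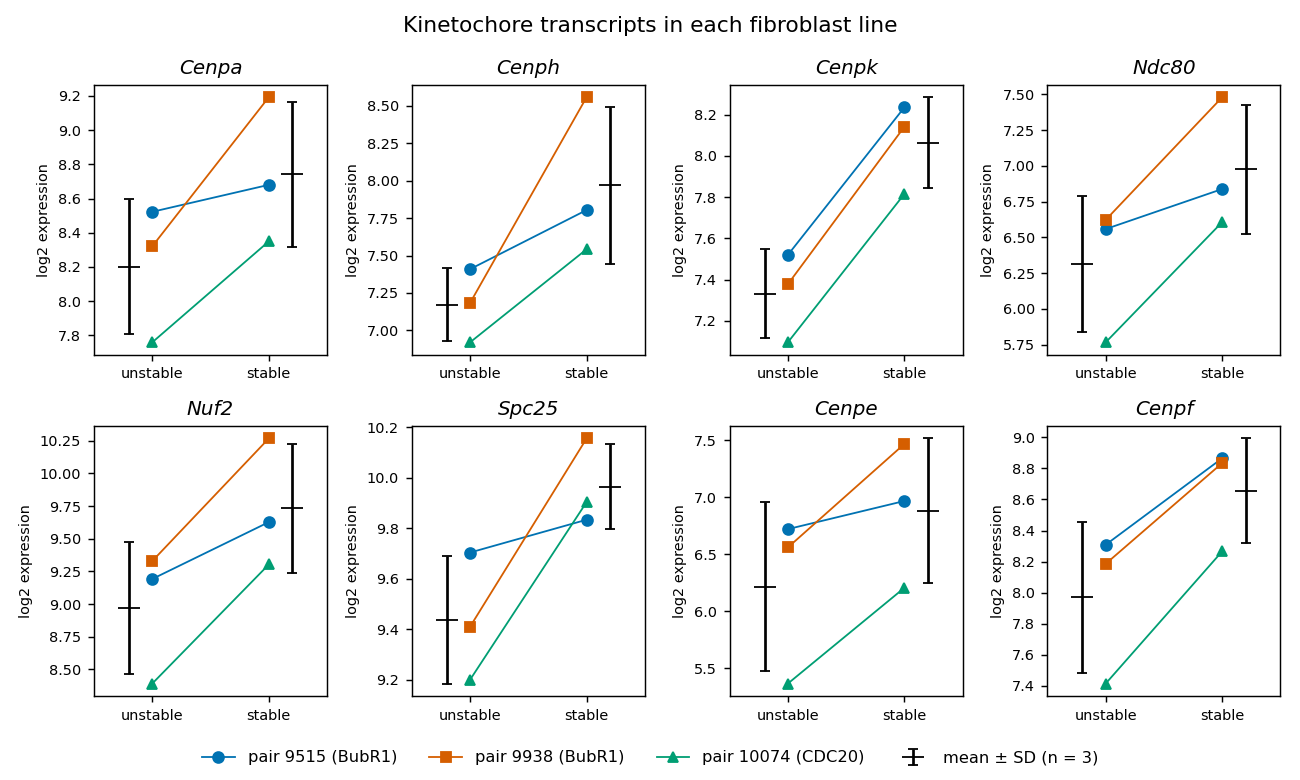
Log2 expression of the 8 kinetochore genes in the 3 unstable and the 3 stable lines, with a panel and an axis range for each gene; coloured lines join the lines of a pair, and black marks are group means with SD (n = 3 each). Every coloured line is lower at its unstable end; in Cenpk they run nearly parallel, and in all 8 panels the unstable 10074 line is the lowest point.

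Across the 6 lines the 8 genes shared much of their pattern. The mean of their values, each centred on its own mean, was -0.05, -0.16 and -0.80 in the unstable lines, against 0.32, 0.73 and -0.04 in the stable lines. The unstable 10074 line was the lowest for 8 of 8 genes. The stable 10074 line was thus near the BubR1 H/H lines, and in 3 genes (Cenpa, Cenpe and Cenpf) it lay below the unstable 9515 line and in 3 (Cenpe, Ndc80 and Nuf2) below the unstable 9938 line. Each gene followed this mean with a Pearson r over the 6 lines of 0.91 for Cenpk to 0.99 for Cenpa. The 8 genes entered that mean themselves and share the same 6 arrays, so the r values are descriptions.

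By genotype, BubR1 H/H lines were compared with BubR1 +/+ lines, with 2 lines each, in a model with 4 genotypes. The spread in that model comes from these BubR1 lines alone, since each CDC20 genotype had 1 line. All 8 differences were below 0, from -0.89 for Cenph to -0.44 for Spc25, with a median of -0.59. None passed limma's test (adjusted p = 1.0 each, 0.0% of all genes), and with the pair block the adjusted p was 0.418 to 0.618, again with none passing and 0.0% of genes. Before adjustment 3 of the 8 were lower at p under 0.05 (Cenpf, Cenph and Cenpk), beside 1.67% of genes, and with the block 6 of the 8, beside 4.09%. The median was -0.35 without the stable 9938 line.

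The CDC20 AAA/AAA line differed from the CDC20 +/+ line by -0.59 for Cenpa to -0.91 for Nuf2, with 1 line each and so no test of its own. The difference between the BubR1 and the CDC20 effect was tested in the same model, whose spread comes only from the BubR1 lines. It was above 0 for 6 genes and below 0 for Cenph (-0.26) and Cenpk (-0.02), with a median of 0.24 over the 8, and none passed (limma adjusted p = 1.00 each, 0.0% of all genes). At an unadjusted p under 0.05 there were 0 of 8, beside 1.59% of genes, and with the block 0 of 8, beside 5.68%. The narrowest interval was that of Cenpf, 0.25 with a 95% interval of -0.27 to 0.76, and the widest that of Cenph, which ran from -1.79 to 1.26. The median was -0.02 without the stable 9515 line, 0.38 without the stable 9938 line, 0.15 without the unstable 9515 line and 0.09 with the mean of each gene's probe sets. All 8 intervals held 0, which does not show that the alleles of the 2 loci act alike. Variation between lines of a CDC20 genotype was not measured and is not in these intervals.

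Most of the other centromere genes tested were lower too. Of the 15 other centromere and CCAN genes listed, 9 had a probe set and 8 were tested. On group means 7 were lower and 1 higher, beside 52.1% of all genes tested that were lower. In all 3 pairs 6 were lower, beside 19.3%, and the median was -0.30. Cenpq, a CCAN subunit, had a difference of -0.65 with a standard error of 0.25, and its pairs gave -0.27, -0.74 and -0.93. Cenpn, which reads the CENP-A nucleosome, had one of -0.54 with a standard error of 0.25. Cenpc1, whose product binds CENP-A nucleosomes directly, was the exception at 0.08 with a standard error of 0.28 and pairs of 0.10, -0.03 and 0.19.

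Among the 7 listed genes for CENP-A deposition 4 were tested. On group means 2 were lower, beside 52.1% of all genes tested, and 2 higher, with a median of -0.17. Nasp, a histone chaperone, had a difference of -0.54 with a standard error of 0.19, and its pairs gave close values of -0.57, -0.52 and -0.52. Mis18a, which licenses centromeres for new CENP-A, had a difference of -0.35. Rbbp4 and Rbbp7, histone-binding proteins found in many chromatin complexes, differed by 0.07 and 0.01.

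Of the 15 other outer kinetochore genes listed (MIS12, SKA and RZZ complexes, corona and related proteins) 12 were tested. On group means 11 were lower, beside 52.1% of all genes tested, and 1 was higher. In all 3 pairs 8 were lower, beside 19.3%, and the median was -0.26. Spdl1, the dynein adaptor spindly, had a difference of -0.60 with a standard error of 0.24, and Pmf1, a MIS12 complex subunit, one of -0.49 with a standard error of 0.17. Clasp1, a microtubule plus-end protein, differed by 0.09 with a standard error of 0.10, and its pairs gave 0.20, 0.07 and 0.002. None of the genes in these 3 lists passed limma's adjusted threshold. Before adjustment, 2 of the 8 centromere, 1 of the 4 deposition and 2 of the 12 outer kinetochore genes were lower at p under 0.05, beside 2.93% of all genes. With the pair block those counts were 5, 2 and 6, beside 6.92%.

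Cell cycle genes outside these kinetochore lists were lower as well. All 19 tested G2 and mitosis genes were lower on group means, beside 52.1% of all genes tested, and 18 in all 3 pairs, beside 19.3%. Their median was -0.56 over the genes, and by pair the medians were -0.21, -0.63 and -0.81. Racgap1, a regulator of cytokinesis, had a difference of -0.74 with a standard error of 0.29, and Cdc25c, a phosphatase that activates CDK1, one of -0.72 with a standard error of 0.28. All 17 tested S phase genes were lower in all 3 pairs, again beside 19.3% of all genes tested, with a median of -0.48. The 3 pairs had medians of -0.26, -0.45 and -0.51. Cdc6, a replication licensing factor, had a difference of -0.90 with a standard error of 0.37, and Cdc45, a part of the replicative helicase, one of -0.75 with a standard error of 0.23. None of these genes passed limma's adjusted threshold; at an unadjusted p under 0.05, 5 of the 19 and 8 of the 17 were lower, beside 2.93% of all genes. With the pair block it was 19 of the 19 and 13 of the 17, beside 6.92%, where it was 8 of the 8 kinetochore genes.

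The kinetochore genes lay below the median of the G2 and mitosis genes in pair 9938, and on both sides of it in pairs 9515 and 10074. Each gene's difference minus the median of the same pair was below 0 for all 8 in pair 9938, from -0.75 for Cenph to -0.02 for Cenpf. In pair 10074, 4 were above it and 4 below, from 0.22 for Cenpa to -0.10 for Nuf2. In pair 9515, 6 were below it and 2 above, from -0.51 for Cenpk to 0.08 for Spc25. Whether the 8 genes differ from other genes of dividing cells beyond the spread between lines was not tested.

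**Figure D4:**
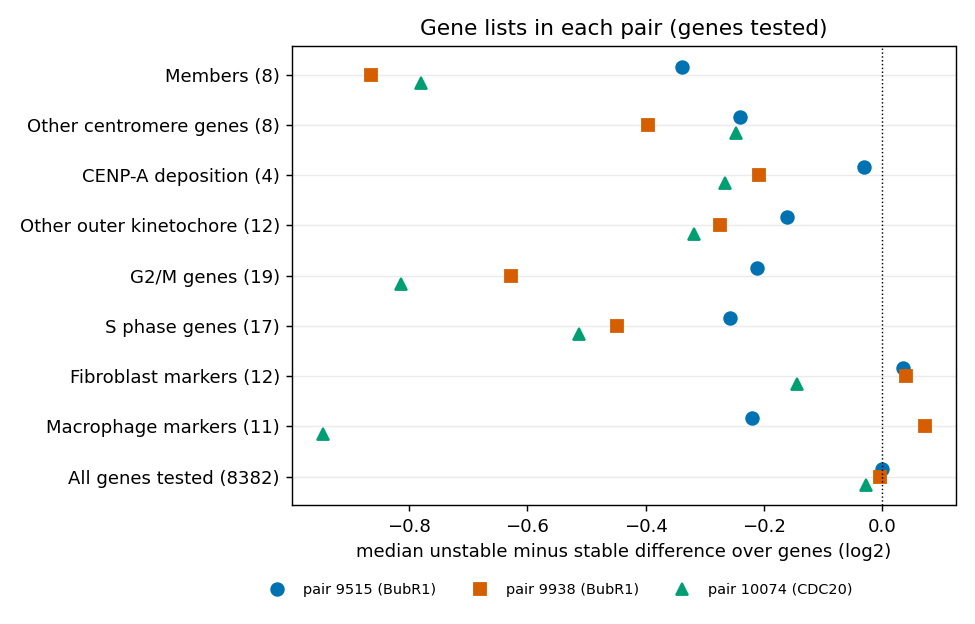
Median unstable minus stable log2 difference over the tested genes of each list, with 1 point per pair and the number of genes in brackets; "Members" are the 8 kinetochore genes. The 8 genes lie furthest left in pairs 9515 and 9938 (-0.34 and -0.87), the G2/M and S phase lists lie left of 0 in all 3 pairs, and macrophage markers lie at -0.95 in pair 10074 but at 0.07 in pair 9938.

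Markers of other cells were measured beside these differences. Fibroblast markers had a median of -0.01, and of 0.04, 0.04 and -0.14 within the pairs. The summed linear level of the 12 macrophage and leukocyte markers was 3811, 18785 and 10379 in the unstable lines, against 4272, 18557 and 19372 in the stable lines, and Itgam stayed below a log2 value of 4 on every array. Of the 11 tested macrophage markers 7, 5 and 11 were lower in the unstable line of the 3 pairs, with medians of -0.22, 0.07 and -0.95. Among all 8382 genes tested, 4153, 4224 and 4572 were lower in those pairs. The part of macrophage RNA in the kinetochore differences was not tested in any pair.

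Among genes outside the list, the 5 whose values over the 6 lines were most like the mean of the 8 kinetochore genes were Nek2, Rpa2, Ccnf, Diaph3 and Mcm2, with a Pearson r of 0.998, 0.998, 0.996, 0.996 and 0.996. Nek2 encodes a centrosomal kinase, with pair differences of -0.42, -0.96 and -0.77. Rpa2 encodes a subunit of the single-stranded DNA binding protein of replication, with pair differences of -0.38, -0.70 and -0.61. Ccnf encodes cyclin F, Diaph3 a formin that nucleates actin and Mcm2 a subunit of the replicative helicase. An r of at least 0.95 was reached by 135 of the 8374 tested genes outside the list, and with 6 lines such values are a description only.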

How the data were processed

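Per the labels' protocols, RNA of each line was purified, amplified, labelled with biotin and hybridised to an Affymetrix mouse array. The authors deposited log2 values for 6 arrays, made with GCRMA 2.28.0 in R 2.15.3 per the submitters' processing notes. GCRMA corrects the background and makes the distributions of arrays alike, so differences in overall brightness are removed. Scanner intensities were not analysed here, 0 other columns of values were present, and the genome build behind the probe sets is not given in the sources used here. No 2 arrays held identical values.

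Of 22626 probe sets 20380 had 1 symbol in the platform annotation, 691 had several and 1555 were not listed. Each of 12393 genes was represented by its probe set with the highest mean, and the 8382 genes that reached 4 (log2) on 3 or more arrays were tested. Differences (unstable minus stable, and the BubR1 and BubR1 minus CDC20 contrasts of a model with 4 genotypes) were fitted with limma 3.58.1 in R 4.3.3, two-sided, with Benjamini-Hochberg adjusted p under 0.05. An exact permutation test of 3 lines against 3 cannot go below 0.1 and was not used.

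Deviations from the group mean were alike in lines of the same number, with correlations across genes of 0.812, 0.681 and 0.602 in pairs 9515, 9938 and 10074, against -0.673 to 0.153 for lines of different numbers. The deviations of a group's lines cancel out for each gene, so positive correlations within pairs push the others down. The numbers come from the titles and were taken to pair the lines. The block fit is given beside counts of kinetochore and cell cycle genes that it changes.

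The kinetochore genes, the other lists and the tests were chosen with earlier results of these data known. Every listed kinetochore gene is named, as are Bub1b and Cdc20, at most 4 genes of each gene list (the 2 largest falls and 2 largest rises of the mean difference, as far as there were rises) and the 5 genes most like the mean of the 8; marker lists are given by their sums and counts. The summed linear level of the 7 muscle markers was 15009 to 18128 in unstable and 14836 to 19412 in stable lines. Of the 5 tested, 4 were higher and 1 lower on group means, beside 4009 higher of the 8382 genes tested. Their differences had a median of 0.03 and ran from -0.09 to 1.16 (Myh11). Epithelial markers had a median difference of -0.04, and 1 endothelial marker was tested. Promoter sequences are those of RefSeq. The fits were also run on simulated data with known differences, and no result here rests on that run. Its noise was drawn independently for each gene, so it does not bear on genes that vary together. Alternatives were the pair block, other filters, the mean of probe sets or each probe set alone, renormalization, other models of the spread, and leaving out each line or pair.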

Additional observations from a re-analysis of the deposited data

How the results depend on the processing

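Over 21 alternatives all 168 differences of the 8 kinetochore genes stayed below 0 and 0 passed the adjusted threshold, with a smallest limma adjusted p of 0.227. Many of these signs were fixed in advance. The pair block, the filters, each probe set alone and an intensity trend in the spread leave a difference unchanged. With each probe set alone, a gene was read at the probe set that represents it. The second probe sets of Cenpf and Spc25, with differences of -0.44 and 0.00, are therefore not counted separately. Leaving out a pair cannot reverse a gene that is lower in every pair. The median over the 8 genes was -0.68, and -0.87 to -0.41 with single lines left out, -0.80, -0.55 and -0.59 without pairs 9515, 9938 and 10074, and -0.63 with array weights. The number of the 8 at an unadjusted p under 0.05 was 3. With the pair number as a replicate block it was 8, and it was 8, 6 and 6 with that block and without pair 9515, 9938 or 10074, which are settings chosen after seeing the data. It was 1 without pair 9938 and, with single lines left out, 1 (unstable 10074) to 5 (stable 10074). The BubR1 minus CDC20 value took either sign for 6 of the 8 genes. For Cenpf it was -0.19 with the mean of its probe sets, against 0.25. With single BubR1 lines left out, a setting chosen after seeing the data, it was -0.18 to 0.33 for Cenpa, -0.64 to 0.11 for Cenph, -0.091 to 0.051 for Cenpk, -0.049 to 0.59 for Ndc80 and -0.096 to 0.54 for Nuf2. The causes of these changes were not tested.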

Other observations

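The 3 genes with no CHR match in their promoter windows (Cenph, Cenpk and Nuf2) had the 3 largest unstable minus stable differences, -0.80 to -0.73, while the 5 genes with a match lay at -0.69 to -0.53. By pair, the genes without a match lay at -0.72 to -0.40, -1.38 to -0.76 and -0.91 to -0.62 in pairs 9515, 9938 and 10074, and the genes with one at -0.56 to -0.13, -0.91 to -0.65 and -0.85 to -0.59, so the ranges overlap in every pair. This split was chosen after the values were seen and was not tested.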
